A study of Mus musculus with 15 samples.

Results

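The 5 genes *Clock*, *Arntl*, *Npas2*, *Bhlhe40* and *Bhlhe41* were taken by symbol from a table of 23235 genes measured by RNA-seq in adult mouse cortex. All 5 were found, and 4 passed the filter on low values, since *Bhlhe41* stayed under a mean of 1 FPKM (fragments per kilobase, adjusted for library depth). The table has 4 groups, WT C57BL/6J and *Snord116del* mice of strain B6(Cg)-Snord116tm1.1Uta/J, each at Zeitgeber time (Zt) +6 h, in the light phase, and Zt +16 h, in the dark phase. The *Snord116del* (+/-) mice carried a paternally inherited deletion of the *Snord116* cluster and were littermates of the WT mice, and all mice were adult males. There were 3 WT mice at Zt +6 and 2 mice in each of the other groups. The table holds 1 FPKM value per gene and group, so no difference below has a replicate check, an error or a p-value. By qPCR in a larger set of mice, the paper reported higher *Clock* in mice with the deletion in the light phase. Peaks at the same genes were taken from 5 lists of chromatin isolation by RNA purification (ChIRP), in which biotinylated oligos pull down an RNA with the DNA bound to it. The lists came from adult brain: oligos against the lncRNA *116HG*, the spliced host transcript of *Snord116*, on WT brain (replicates 1 and 2) and on *Snord116del* brain, and non-specific control (NSC) oligos on each genotype.

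The mammalian clock is a feedback loop of transcription. CLOCK, or its relative NPAS2 in the forebrain, pairs with BMAL1 (encoded by *Arntl*), and the pair binds the E-box CACGTG and activates target genes that include *Per1*, *Per2*, *Cry1*, *Nr1d1* and *Dbp*. BHLHE40 (DEC1) and BHLHE41 (DEC2) are E-box binding repressors and are targets of the pair themselves, while ROR and REV-ERB receptors act on *Arntl* through elements that hold AGGTCA. The activators and BHLHE40 with BHLHE41 therefore act in opposite directions on the same class of site.

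Sequences are shown for the peaks and promoters that the ChIRP results turn on, since the peaks differ in their base makeup. The only place at the 5 genes where the WT *116HG* lists overlapped each other was in an intron of *Arntl* (mm9, plus strand), at chr7:120415462-120415534 in replicate 1 and chr7:120415471-120415552 in replicate 2, and in both peaks the capitals mark a run of 44 A.

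Arntl replicate 1: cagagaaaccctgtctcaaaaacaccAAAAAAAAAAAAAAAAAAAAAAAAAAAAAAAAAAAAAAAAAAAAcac

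Arntl replicate 2: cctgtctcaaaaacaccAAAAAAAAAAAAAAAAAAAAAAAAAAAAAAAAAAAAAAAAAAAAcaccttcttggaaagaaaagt

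The overlap of 64 bases lay mostly over that run.

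Another peak over a run of 1 base lay downstream of *Bhlhe41* in replicate 1, at chr6:145805777-145805843 (plus strand, opposite to the gene), with a run of 28 T in capitals.

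Bhlhe41 downstream: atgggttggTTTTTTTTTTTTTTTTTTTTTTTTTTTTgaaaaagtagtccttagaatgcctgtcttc

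Promoter windows of 300 bases from RefSeq (GRCm38.p6, 250 bases before to 50 after a start site) were at hand for 4 of the 5 genes. They were searched on both strands for CACGTG, for the E-box variant CACGTT and for AGGTCA. *Bhlhe41* held CACGTG, a motif found in 7.15% of 32851 such windows, and its window is shown as the only one with this E-box among the 4 genes searched. Capitals mark the motif, and the window lies at chr6:145865371-145865670 on the minus strand of GRCm38.p6.

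Bhlhe41 promoter: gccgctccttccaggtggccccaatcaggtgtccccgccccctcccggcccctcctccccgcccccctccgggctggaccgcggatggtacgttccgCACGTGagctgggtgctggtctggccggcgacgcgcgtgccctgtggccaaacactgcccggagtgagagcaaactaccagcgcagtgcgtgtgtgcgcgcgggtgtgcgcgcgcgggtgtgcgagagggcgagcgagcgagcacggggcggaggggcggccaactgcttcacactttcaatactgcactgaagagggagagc

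*Arntl*, whose protein is the shared partner of both activators, held AGGTCA at the second of its 2 listed starts, just 3′ of the start site, and this motif occurred in 16.3% of all windows. The window is chr7:113207261-113207560 on the plus strand of GRCm38.p6.

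Arntl promoter: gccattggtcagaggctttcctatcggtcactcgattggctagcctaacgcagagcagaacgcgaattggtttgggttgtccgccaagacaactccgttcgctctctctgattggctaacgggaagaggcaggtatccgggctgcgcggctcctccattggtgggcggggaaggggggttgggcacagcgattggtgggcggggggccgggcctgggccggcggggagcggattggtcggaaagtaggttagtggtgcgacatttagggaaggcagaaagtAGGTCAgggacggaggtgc

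*Clock* held AGGTCA, written TGACCT on its strand, at the third of its 3 starts and at neither of the others. The window of *Npas2* had no match to any of the 3 motifs, and CACGTT, present in 4.68% of windows, was in no window of the 4 genes. A match describes the letters of a window and shows no binding, and a missing match says nothing of the factor.

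The groups also differed in summaries over the whole table. Summed over all genes, FPKM was 159300 and 160199 in the light phase (WT, then *Snord116del*) but 216422 and 342188 in the dark phase. The median over the genes tested (filter given below) was 3.17 and 5.63 FPKM in the light phase and 2.90 and 4.00 in the dark phase. The totals and the medians thus did not move together. The *Snord116* rows of the table are listed at 0 in every group, so they do not check the genotype labels. Cortical neurons were represented in each group, with 417 to 590 FPKM of *Snap25*, a synaptic vesicle fusion protein, and 60.3 to 127 of *Slc17a7*, the vesicular glutamate transporter of cortical excitatory neurons. The labels of 1 WT mouse and of both *Snord116del* mice at Zt +6 name an earlier version of the results table than the other mice do. Changes below are log2 differences of FPKM + 1. Genes were counted as higher or lower when FPKM + 1 was 1.5-fold or more apart between groups with 1 FPKM or more in the higher one. This fold rule was applied to the 10297 genes whose mean over the groups reached 1 FPKM. *Arntl* reached that mean only through *Snord116del* at Zt +6, the group where it was high, as did some listed genes such as *Hes1*. Their counts in comparisons that use this group lean on the value that admitted them. The pseudocount of 1 understates the change of low genes such as *Arntl* and *Bhlhe41*.

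*Bhlhe40* was the most abundant of the 5 genes in all groups but *Snord116del* at Zt +16, where *Npas2* was above it, and *Bhlhe41* was the least abundant in all 4. These levels are per length of transcript, but the genotype difference at Zt +6 still moved with transcript length (given below), so the order of genes of unequal length is a description only. In the light phase *Clock* had 2.64 FPKM in WT against 9.77 in *Snord116del*, and in the dark phase 1.62 against 2.05. For *Npas2* the levels in the same order were 3.79 against 10.2 and 3.83 against 4.66 FPKM. *Arntl* had 1.44 against 3.57 FPKM in the light phase and 0.701 against 0.761 in the dark phase. In all 3 activators the *Snord116del* group at Zt +6 stood above the other groups. The repressor *Bhlhe40* had 8.45 FPKM in WT against 23.5 in *Snord116del* in the light phase, and 4.53 against 4.33 in the dark phase. *Bhlhe41* had 0.471 against 1.08 FPKM and then 0.165 against 0.167. Both repressors had their highest value in the same group as the activators, and at Zt +16 the genotypes lay close together in each of the 5 genes. Without a spread between mice, it cannot be said which neighbours in these orders differ.

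**Figure D1:**
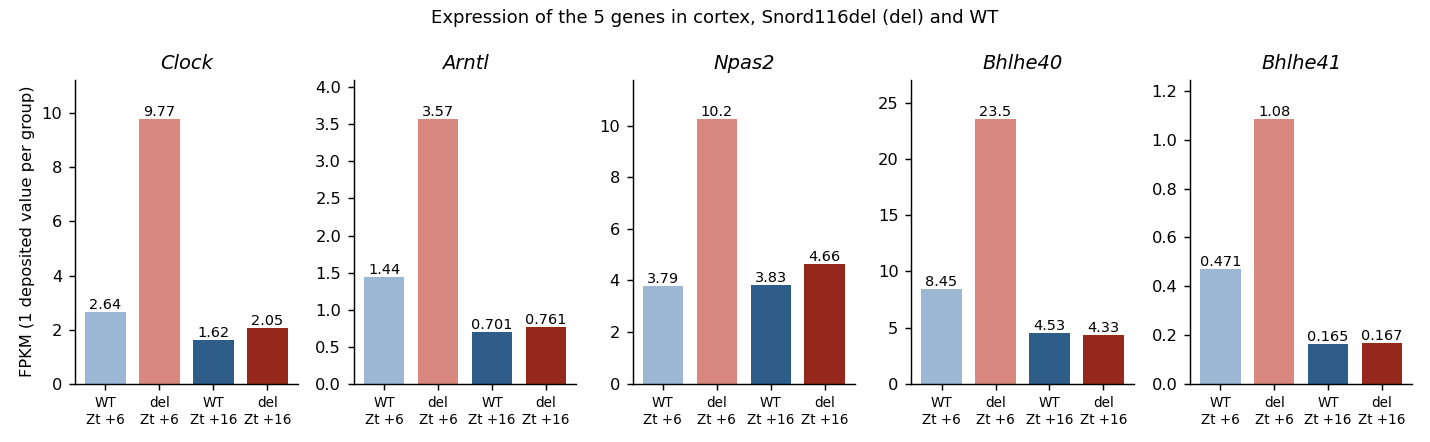
FPKM of each gene (vertical axis, own scale per panel, from 0) in the 4 groups, with 1 bar per group for the authors' single value, so that no error can be drawn. In every panel the *Snord116del* bar at Zt +6 is the tallest, from 1.08 FPKM for *Bhlhe41* to 23.5 for *Bhlhe40*.

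Ratios among the genes within a group do not depend on how the groups are scaled to each other, but they do not remove a trend with transcript length. *Clock* had 0.697 times the FPKM of *Npas2* in WT against 0.954 times in *Snord116del* in the light phase, and 0.424 against 0.439 times in the dark phase. The dimer partner *Arntl* was the lowest of the activators throughout, with *Npas2* at 2.64 and 2.87 times its level at Zt +6 and 5.46 and 6.12 times at Zt +16. In FPKM both ratios were further apart between the times than between the genotypes. With the trend along transcript length removed (described below), the log2 change between times was -0.027 for *Clock* and 0.13 for *Npas2* in WT, and -0.28 and -0.37 in *Snord116del*, so the fall of *Clock* relative to *Npas2* was smaller in WT and was not kept in *Snord116del*. *Arntl* had -0.54 and -1.29, and was below *Npas2* in both. *Bhlhe40* exceeded *Bhlhe41* by 17.9 to 27.5 times in the 4 groups. The summed FPKM of both repressors was 1.13 times that of the 3 activators in WT against 1.04 times in *Snord116del* in the light phase, and 0.762 against 0.603 times in the dark phase.

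At Zt +6, the question was whether loss of *Snord116* changes these transcripts in the light phase. *Clock* was 2.96-fold higher in *Snord116del* on the FPKM + 1 scale, a log2 change of 1.56, *Bhlhe40* 2.60-fold (1.38), *Npas2* 2.35-fold (1.23) and *Arntl* 1.87-fold (0.91). All 4 measured members that passed the filter were counted as higher, as were 49.3% of all tested genes, while 7.62% of all tested genes were counted as lower. The count of *Arntl* leans on the value through which it passed the filter. The median change of all tested genes was itself 0.57 on the log2 scale, and above that median *Clock* stood by 0.99, *Bhlhe40* by 0.81, *Npas2* by 0.66 and *Arntl* by 0.34. Only 4.85% of tested genes had a larger change than *Clock* and 9.60% than *Bhlhe40*, against 15.3% for *Npas2* and 31.6% for *Arntl*. On this scale *Clock* and *Bhlhe40* were therefore near the upper end of the distribution and *Arntl* nearer its middle. The pseudocount lowers the value of *Arntl*, whose FPKM ratio of 2.48 was near those of *Npas2* (2.70) and *Bhlhe40* (2.79). *Bhlhe41*, not tested, had a log2 change of 0.50 and an FPKM ratio of 2.30.

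The genotype difference at Zt +6 followed transcript length across all genes. With the tested genes in 3 equal classes by their longest annotated transcript, the median log2 change was 0.026 in the short class (up to 2297 bases), 0.55 in the middle class and 1.04 in the long class (from 3988 bases), and 19.6%, 47.6% and 80.9% were counted as higher. *Clock*, with a transcript of 8645 bases, and *Npas2*, with 4234, are in the long class, and *Arntl* (2925) and *Bhlhe40* (3113) in the middle class. At the length of *Clock* the running median of 501 genes was 1.28, so that a log2 difference of 0.29 was left after subtracting it. For *Npas2* the running median was 0.84 and 0.39 was left, and for *Arntl* it was 0.52 and 0.38 was left. *Bhlhe40* kept 0.81 above a running median of 0.57 and was the only member still past the fold rule. Of all tested genes, 12.6% were then counted as higher and 13.6% as lower. *Bhlhe41*, with a long transcript of 6133 bases, went to -0.60. Its change before this step was 0.50 with the pseudocount of 1 and 1.05 with 0.1. The -0.60 therefore does not place it below genes of its length. The part of transcript length in these differences was not tested.

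**Figure D2:**
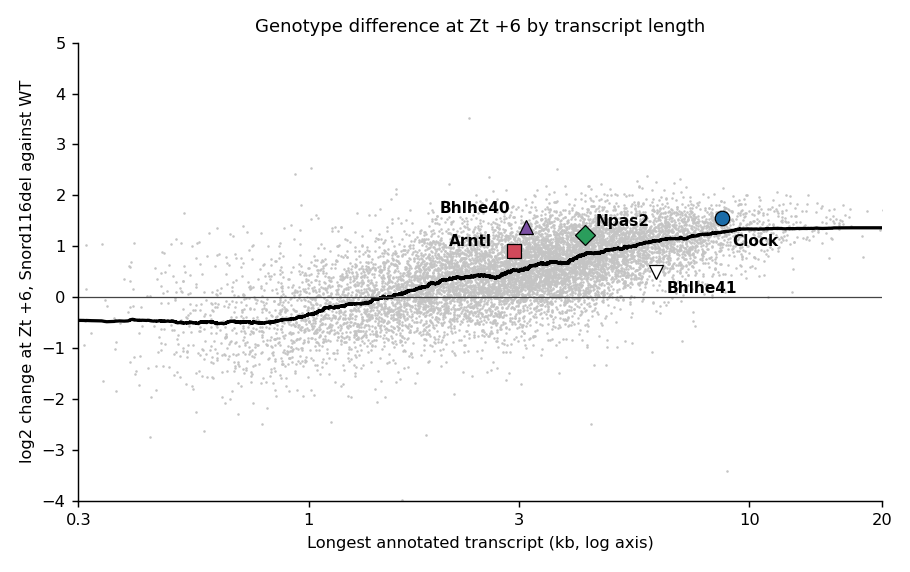
Log2 change of FPKM + 1 at Zt +6, *Snord116del* against WT (vertical axis), by longest annotated transcript in kb (horizontal log axis), for the tested genes (grey points), with the running median of 501 genes (black line) and the 5 genes as larger symbols, *Bhlhe41* open because it was not tested. *Clock*, at 8645 bases, lies 0.29 above the line and *Bhlhe40*, at 3113 bases, lies 0.81 above it.

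The scale given to the groups also set the size of the difference. With every group brought to the same median, the log2 change at Zt +6 was 0.86 for *Clock*, 0.60 for *Bhlhe40*, 0.51 for *Npas2* and 0.32 for *Arntl*, and 2 members were counted. With quantile normalization the values were 1.03, 1.09, 0.67 and 0.26 in the same order. In that setting 3 members were counted, beside 22.2% of all tested genes counted as higher and 20.6% as lower. *Arntl* had the smallest value in both, and all 4 tested members stayed positive under each scale tried. Scaling to *Gapdh*, the reference gene of the study's qPCR, gave the largest values, 2.27 for *Clock* and 1.55 for *Arntl*, while *Gapdh* itself went from 1386 FPKM in WT to 843 in *Snord116del* in the light phase and from 1694 to 3368 in the dark phase. Under that scale the median of all tested genes was 1.21, with 77.9% of them counted as higher and 1.88% as lower, whereas at the same median the shares were 14.8% and 24.2%.

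Signs of other cell types moved between the same groups. The summed FPKM of 5 astrocyte markers was 33.3 in WT against 98.5 in *Snord116del* in the light phase, and 14.8 against 19.1 in the dark phase, with the water channel gene *Aqp4* at 2.29, 9.57, 0.868 and 1.13. The 4 endothelial markers summed to 4.56, 17.1, 2.00 and 2.75 FPKM in the same order of groups, and 4 choroid plexus markers to 203, 185, 25.8 and 30.9. Astrocyte and endothelial sums thus had the same order of groups as *Clock* and *Arntl*, and the choroid plexus sum split by time of day. In the same order of groups, summed neuronal markers had 678, 946, 550 and 756 and microglial markers 24.1, 41.8, 22.3 and 35.9. Both were also highest in *Snord116del* at Zt +6. Oligodendrocyte markers (400 to 943), striatal (19.4 to 39.3) and hippocampal markers (15.6 to 31.2) were highest in *Snord116del* at Zt +16. Blood markers ran from 99.9 to 429, where *Hba-a1* was listed at 0 in every group and no other defining marker was. Their part in the results was not tested, and in bulk tissue fewer cells of a type and less RNA per cell cannot be told apart.

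At Zt +16, in the dark phase, none of the 4 tested members passed the fold rule, where 19% of all tested genes were counted as higher and 0.204% as lower. The log2 change was 0.23 for *Npas2*, 0.21 for *Clock*, 0.050 for *Arntl* and -0.052 for *Bhlhe40*, all under the median of 0.35 over all tested genes. *Bhlhe40* was low among all genes, with 98.2% of tested genes above it, and *Arntl* had 94.1% above it. With the groups at the same median, all 4 were under 0, from -0.090 for *Clock* to -0.44 for *Bhlhe40*, so the sign of the small positive values depended on the scale. The shares of all tested genes counted as higher and lower were then 1.20% and 0.515%, and 0.311% and 0.952% at the same total. Scaled to *Gapdh*, *Bhlhe40* was counted as lower in *Snord116del* (-0.79), beside 8.56% of all tested genes. *Bhlhe41* differed by 0.0034.

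Between times in WT, *Bhlhe40* was lower at Zt +16, with a log2 change of -0.77, and it was the single tested member counted, beside 10.3% of all tested genes counted as lower and 5.71% as higher. *Arntl* (-0.52) and *Clock* (-0.47) were lower by less than the fold rule, and *Npas2* was level at 0.014. These stood against a median of -0.038 over all tested genes. *Npas2* was 0.12 with the groups at the same median and -0.34 with the same total, so no direction is given for it. Of all tested genes, 10.6% were counted as higher and 9.24% as lower at the same median, and 0.495% and 28.0% at the same total. *Bhlhe41* went from 0.471 to 0.165 FPKM, a log2 change of -0.34.

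Between times in *Snord116del*, all 4 tested members were lower at Zt +16, beside 39.1% of all tested genes counted as lower and 25% as higher. For *Arntl*, the Zt +6 value that enters here is the one through which it passed the filter. The log2 change was -2.20 for *Bhlhe40*, -1.82 for *Clock*, -1.37 for *Arntl* and -0.99 for *Npas2*, and the median over all tested genes was -0.24. In FPKM, *Bhlhe40* at Zt +16 was at 0.184 times its value at Zt +6 and *Clock* at 0.209 times. *Bhlhe40* had a larger fall than all but 3.54% of tested genes and *Clock* than all but 7.84%. The 4 values stayed negative under each scale tried, but with the length trend removed *Clock* (-0.28) and *Npas2* (-0.37) no longer passed the rule. At the same median *Npas2* (-0.55) did not pass it either, which left 3 members, and 34.9% of all tested genes were counted as higher and 26.3% as lower, and at the same *Gapdh* 2.11% and 85.2%.

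The difference between the genotype changes at the 2 times was largest for *Bhlhe40* (1.43) and *Clock* (1.35), followed by *Npas2* (1.00) and *Arntl* (0.86), on the log2 scale. All 4 were past the rule in the direction of a larger *Snord116del* excess at Zt +6, beside 33.5% of all tested genes in that direction and 19.4% in the other. *Arntl* passed the filter only through its *Snord116del* value at Zt +6, so its count again leans on that value. At the same median these shares were 17.4% and 27.2%, with 3 members past the rule, and at the same total 56.9% and 8.33%, with 4. With the length trend removed the order changed, to 1.21 for *Bhlhe40*, 0.71 for *Arntl*, 0.47 for *Npas2* and 0.27 for *Clock*, and only *Bhlhe40* and *Arntl* were past the rule. The shares of all tested genes, in the same order of directions, were then 15.4% and 17.9%. The 5 comparisons share groups, *Snord116del* at Zt +6 entering 3 of them, and so are not independent of each other. *Bhlhe41* had 0.50.

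**Figure D3:**
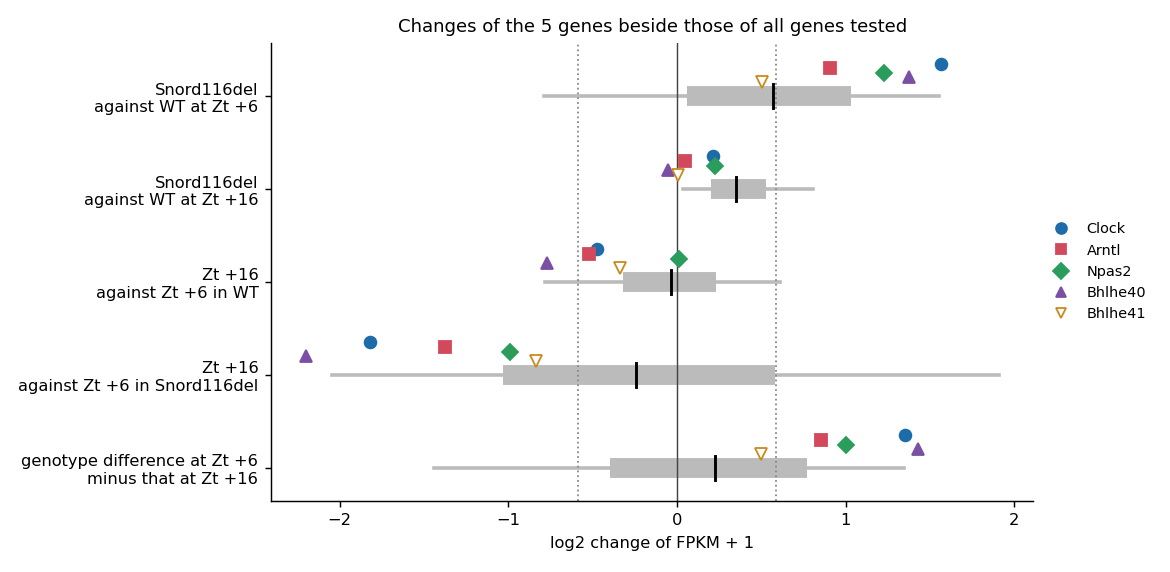
Log2 change of FPKM + 1 (horizontal axis) in the 5 comparisons (rows), with symbols for the 5 genes, *Bhlhe41* open because it was not tested, and grey bars for all tested genes (thick, middle 50%; thin, 5th to 95th percentile; black tick, median), dotted lines marking 1.5-fold. The genes lie to the right of the black tick at Zt +6 except *Bhlhe41* (0.50 against 0.57) and to the left of it at Zt +16.

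The genes whose pattern over the 4 groups was most like that of each member were found by the Euclidean distance of centred log2(FPKM + 1) values. Over these 4 values, *Clock* was nearest to *Arl5a* (0.0030), an ARF-like GTPase gene, to the cohesin regulator *Pds5a* (0.0071) and to *Zfp800* (0.020). The levels of *Pds5a*, 3.06, 11.1, 1.92 and 2.41 FPKM, ran close to those of *Clock* in each group. *Arntl* was nearest to *D8Ertd82e* (0.034), to the monoamine oxidase gene *Maob* (0.043) and to *C2cd3* (0.046). *Npas2* was nearest to the GABA transaminase gene *Abat* (0.023), to *Guf1* (0.028) and to *6430411K18Rik* (0.037). *Bhlhe40* was nearest to the Notch inhibitor *Numb* (0.021), to *Tbck* (0.028) and to the fatty acid elongase gene *Elovl6* (0.041). *Bhlhe41* was nearest to *H2-T23* (0.065), an MHC class I gene whose relatives can share its reads, to *Mettl2* (0.068) and to the actin-binding gene *Lima1* (0.070). No member was among the 3 nearest of another, and the closest pair of members was *Clock* and *Bhlhe40* (0.41). With 4 values per gene, near neighbours are many.

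Other clock genes gave a mixed picture at Zt +6. Of 18 tested core clock genes outside the 5, 12 were counted as higher and 0 as lower, beside 49.3% and 7.62% of all tested genes, with a median log2 change of 0.93 against 0.57. At the same median 5 were higher and 3 lower, beside 14.8% and 24.2% of all tested genes. Once the length trend was removed 2 were higher and 4 lower, beside 12.6% and 13.6%. The nuclear receptor gene *Rorb* (1.82 and 9.50 FPKM) and *Nr1d1* (9.79 and 30.8), which encodes REV-ERB alpha, had the largest rises. In WT the period gene *Per1* was lower at Zt +16 than at Zt +6 (4.03 against 9.89 FPKM), 6 of the 18 being lower and none higher, beside 10.3% of all tested genes counted as lower. Without the length trend 4 were lower and 1 higher in WT, beside 6.78% and 3.29% of all tested genes. In *Snord116del* 11 were lower and 2 higher, beside 39.1% and 25% of all tested genes. With that trend removed 5 were lower and 3 higher, beside 24.95% and 24.96%. *Rora*, another ROR receptor gene, had 8.31 and 1.38 FPKM in *Snord116del*. The F-box gene *Btrc* (8.47 and 14.3) and the PAR bZIP gene *Tef* (24.0 and 43.5) went the other way. At Zt +16 only *Tef* was counted as higher in *Snord116del*, beside 19% of all tested genes, and at the same median 0 were, beside 1.20%. The repressor gene *Nfil3* had a smaller genotype difference at Zt +6 than at Zt +16 (-0.62). It was the single core clock gene past the rule in that direction, beside 19.4% of all tested genes. In the other direction 9 passed, beside 33.5%. At the same median 4 passed in the direction of *Nfil3* and 6 in the other, beside 27.2% and 17.4%. Without the length trend these counts were 3 and 2, beside 17.9% and 15.4%.

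The E-box output list overlaps the core clock list and adds genes such as *Avp*. Of its 11 tested genes, 7 were higher and 1 lower at Zt +6, beside 49.3% and 7.62% of all tested genes. These counts became 3 and 1 at the same median, beside 14.8% and 24.2% of all tested genes. Without the length trend they were 2 and 2, beside 12.6% and 13.6%. Among the 7 first counted as higher were the PAR bZIP gene *Dbp* at 1.86 and 6.00 FPKM and *Per2* at 3.34 and 8.85. The vasopressin gene *Avp*, expressed in hypothalamic neurons, went the other way, with 4.90 and 1.56 FPKM at Zt +6 and 2.60 and 76.6 at Zt +16. In *Snord116del*, 8 of the 11 were lower and 2 higher at Zt +16, beside 39.1% and 25% of all tested genes. The counts in *Snord116del* became 4 and 2 without the length trend, beside 24.95% and 24.96%. In WT 5 were lower and 0 higher, beside 10.3% and 5.71%. *Avp* was thus high in a single group, and not the group in which the 5 members were high.

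Most relatives and partners of the activators were counted as higher at Zt +6, but none was without the length trend. Among 5 tested bHLH-PAS relatives, 4 were higher and 0 lower at Zt +6, beside 49.3% and 7.62% of all tested genes. At the same median 1 was higher and 1 lower, beside 14.8% and 24.2% of all tested genes. Without the length trend 0 were higher and 0 lower, beside 12.6% and 13.6%. The largest rises were those of *Hif1a* (2.77 and 8.71 FPKM), the oxygen-regulated subunit of HIF-1, and of *Arnt2* (7.52 and 19.6), a dimer partner of such proteins. In *Snord116del* the activity-induced *Npas4* went from 7.23 FPKM at Zt +6 to 1.07 at Zt +16 and *Epas1* from 27.7 to 7.14. Of the 5, 4 were lower and 1, *Npas1*, higher (1.55 to 3.00), beside 39.1% and 25% of all tested genes. With the length trend removed 2 were lower and 0 higher, beside 24.95% and 24.96%. Of 13 tested coactivators and chromatin partners, 11 were higher and 0 lower at Zt +6, beside the same 49.3% and 7.62%, among them the acetyltransferase gene *Ep300* (3.52 and 14.5 FPKM) and the H3K4 methyltransferase gene *Mll1* (4.47 and 15.6). At the same median 8 were higher and 0 lower, beside 14.8% and 24.2% of all tested genes. Without the length trend 0 were higher and 1 lower, beside 12.6% and 13.6%. Between times in *Snord116del* 11 were lower and 1 higher, beside 39.1% and 25% of all tested genes. The higher gene was *Gnb2l1* (60.3 to 102), which encodes RACK1. Of the 13, 4 were lower and 1 higher without the length trend, beside 24.95% and 24.96%. In WT 5 were lower, beside 10.3%, with the corepressor gene *Ncor1* at 9.79 and 3.81 FPKM.

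Of 8 tested bHLH repressor relatives of *Bhlhe40* and *Bhlhe41*, 4 were higher and 2 lower at Zt +6, where 49.3% and 7.62% of all tested genes were. Their median log2 change was 0.28 against 0.57 for all tested genes, -0.38 with the groups at the same median and 0.31 without the length trend, so its place relative to all genes depended on the treatment of length. *Id4* (4.02 and 13.4 FPKM), a dominant-negative HLH gene, and *Hes1* (0.977 and 2.63), a Notch effector, were higher, and *Hes6* (3.90 and 1.70) and *Id3* (31.9 and 19.1) lower. At Zt +16 only *Hes5* was counted, with 9.71 FPKM in WT and 18.0 in *Snord116del*, beside 19% of all tested genes counted as higher. At the same median 0 of these relatives were counted, beside 1.20% of all tested genes counted as higher and 0.515% as lower. Between times in *Snord116del* 3 were higher and 2 lower, beside 25% and 39.1% of all tested genes. These counts became 4 and 2 at the same median, beside 34.9% and 26.3% of all tested genes. They were 3 and 4 without the length trend, beside 24.96% and 24.95%. In WT only *Id4* was lower, beside 10.3% of all tested genes, and without the length trend 2 were lower, beside 6.78%. Among 12 tested immediate early genes, which report recent neuronal activity, 4 were higher and 0 lower at Zt +6, a smaller share than the 49.3% of all tested genes. These counts became 0 and 4 at the same median, beside 14.8% and 24.2% of all tested genes. With quantile normalization they were 1 and 3, beside 22.2% and 20.6%, so no direction is given. No immediate early gene was counted at Zt +16 between genotypes, beside 19% of all tested genes counted as higher and 0.204% as lower. Between times, 7 in WT and 8 in *Snord116del* were lower at Zt +16 than at Zt +6, beside 10.3% and 39.1% of all tested genes. *Arc* had 49.5 and 130 FPKM at Zt +6 and 14.4 and 14.8 at Zt +16, the same order by time as *Bhlhe40*.

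ChIRP peaks were counted within 2 kb of each gene. Replicate 1 of the WT *116HG* libraries had 46 peaks at the 5 genes, 20 at *Clock* (chr5:76639992-76733817), 10 at *Npas2* (chr1:39250576-39420079), 9 at *Arntl* (chr7:120350979-120457636), 4 at *Bhlhe40* (chr6:108610623-108616919) and 3 at *Bhlhe41* (chr6:145806763-145814078), all in mm9. All 5 genes thus had a peak, as did 59.4% of the annotated genes of the table and 93.6% of the tested ones. Tested genes had a median of 4 such peaks, and 4.50% had more than *Clock*. Replicate 2 had 1 peak at the 5 genes, in *Arntl*, where 13.9% of annotated genes had at least 1. The nearest replicate 2 peak was 53.4 kb from *Bhlhe40*, 108 kb from *Clock*, 119 kb from *Bhlhe41* and 719 kb from *Npas2*.

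The replicate 1 peaks at these genes lay mainly over exons. The midpoint was in a coding exon for 19 of the 46 peaks, in an untranslated exon for 14, in an intron for 9 and outside the gene for 4, so that 71.7% were exonic, beside 72.0% over the whole list. In replicate 2 the exonic share of the whole list was 2.37%, in WT NSC 3.05%, in *Snord116del* *116HG* 12.4% and in *Snord116del* NSC 22.3%. At *Bhlhe40*, the most abundant member, the 4 peaks covered 85.1% of exon bases and 0 bases of intron. They covered 33.4% of exon bases of *Clock*, 21.1% of *Arntl*, 19.9% of *Npas2* and 4.31% of *Bhlhe41*, with a median of 20.8% over tested genes with a gene model. *Bhlhe40* was highest and *Bhlhe41* lowest both in cover and in FPKM in WT. *Npas2* was above *Clock* and *Arntl* in FPKM in WT in both phases and below them in cover. The FPKM values are from cortex and the peaks from brain, and a link between cover and expression was not tested. Peaks covered at most 1.67% of intron bases, in *Clock*. The highest fold over input at these genes, 299, was in an intron of *Clock* at chr5:76660909-76662130, a peak with a run of 27 A or T, and the peak over the start site of *Clock* had a fold of 200.2.

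Of the 46 peaks, 3 had a replicate 2 peak within 10 kb and so were counted as replicated, all at *Arntl*. Thus 1 of the 5 genes had such a peak, as did 10.9% of annotated genes and 18% of tested genes. Of the 3, only the intronic peak with the 44 A printed above (fold over input 164) overlapped a replicate 2 peak, 64519 bases from the start site of *Arntl*, as did a peak at 3.33% of annotated genes. The others, at chr7:120424172-120424325 in a coding exon (fold 41.0) and chr7:120424643-120424789 in an intron (fold 32.7), were replicated by that same replicate 2 peak at a distance. The middle 32 bases of the intronic pair occur more than once in the genome, as did those of 5 of the 46 replicate 1 peaks. Runs of at least 20 A or T were present in 85.7% of the 1869 replicate 1 peaks that overlapped a replicate 2 peak directly, in 7.80% of those not within 10 kb of replicate 2, in 32.6% of all replicate 2 peaks, in 4.50% of WT NSC peaks and in at most 0.471% of peaks in the *Snord116del* lists. With peaks over such runs left out, no member had a replicated peak, a setting chosen after seeing the data. The part of these runs in the overlap was not tested.

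Control libraries gave 4 peaks at the 5 genes. *Snord116del* NSC had 2 in an intron of *Clock*, with folds of 31.5 and 22.8, and 1 upstream of *Bhlhe41* (22.8), and *Snord116del* *116HG* had 1 upstream of *Bhlhe41* (20.8). The *Bhlhe41* peaks of these 2 lists shared 284 bases at chr6:145814878-145815161 with a GC content of 61.3% and no long run. WT NSC had none. A peak of *Snord116del* NSC was present at 7.88% of annotated genes, of *Snord116del* *116HG* at 2.26% and of WT NSC at 2.30%. *Arntl*, *Npas2* and *Bhlhe40* had no control peak within 2 kb, and each control is 1 library.

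**Figure D4:**
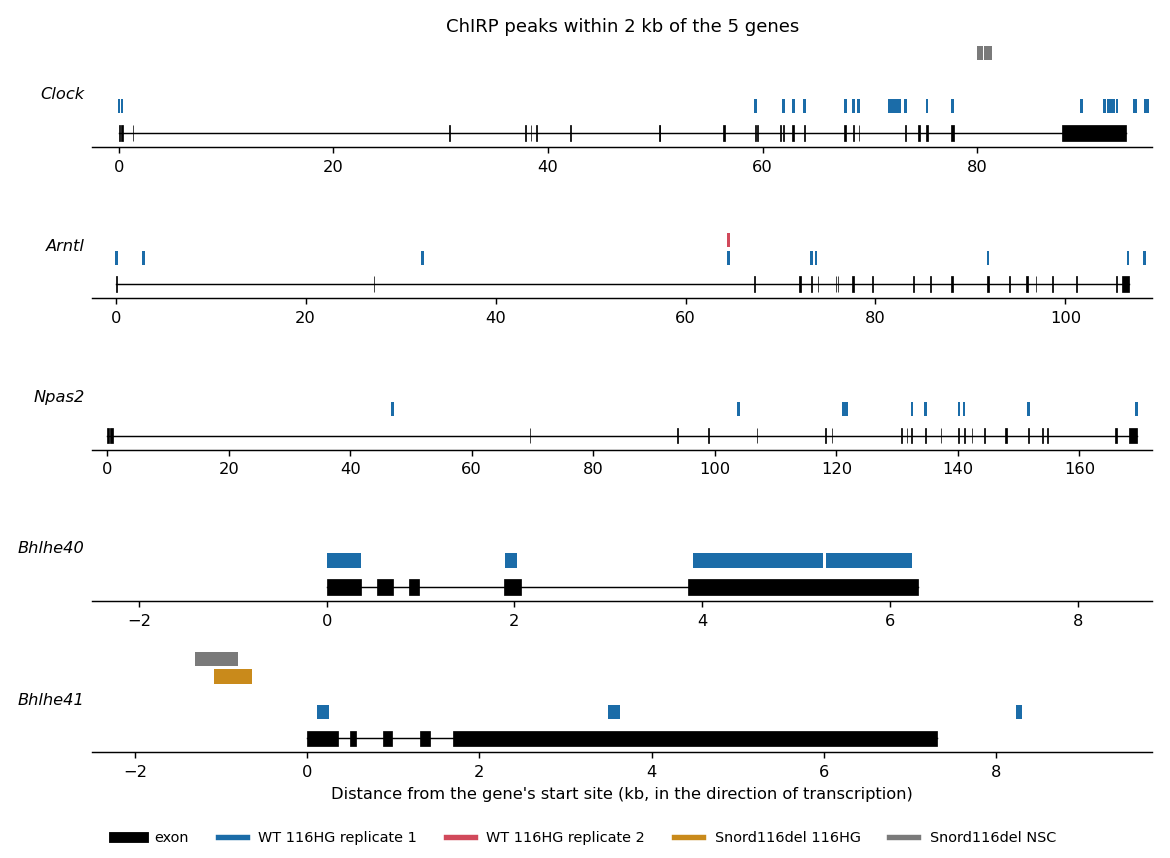
ChIRP peaks (coloured blocks, 1 level per list; narrow peaks drawn at a minimum width) within 2 kb of each gene by distance from its start site in kb (horizontal axis, own scale per gene), above its exons (black). Replicate 1 peaks stand over exons at *Clock* and *Bhlhe40*, and the single replicate 2 peak meets a replicate 1 peak in an intron of *Arntl*.

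At the promoters, replicate 1 peaks overlapped the RefSeq windows of *Clock*, *Arntl* and *Bhlhe41* in mm9, where each window was placed by an exact match. They overlapped the windows at starts 1 and 2 of *Clock*, at start 2 of *Arntl* and at the start of *Bhlhe41*, and not that of *Npas2*. The *Bhlhe41* window is the one printed above with CACGTG and the *Arntl* window the one with AGGTCA. No replicate 2 peak was among them. The first peak of *Bhlhe40*, at chr6:108610629-108610986, had its midpoint inside *0610040F04Rik* as well, and so belongs to neither gene alone. Midpoints inside other annotated genes were also those of a *Clock* peak (chr5:76637856-76638268) and an *Arntl* peak (chr7:120459135-120459429). The same held for the *Npas2* intron peaks with folds of 164 and 71.8.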

How the data were processed

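The series holds 15 samples, of which 9 are RNA-seq of cortex and 6 ChIRP-seq of brain, 1 of them an input library. For RNA-seq the authors aligned reads to mm9 with TopHat2 2.0.5 and deposited 1 Cuffdiff 2.0.2 FPKM value per gene and group. Depth is not in the table. Whether reads were counted by strand is not given in the sources used here. The table's log2 fold changes, q-values and significance calls are the authors' own comparison of genotypes at each time and were not used. For ChIRP-seq the authors aligned reads with Bowtie2 2.0.0, called peaks in each library with MACS 1.4.2 and filtered them at a false discovery rate of 5% and at 20 times the input. The fold over input in the deposited lists is a ratio from MACS. The deposited positions of peaks (another kind of value) are all that the list of WT *116HG* replicate 2 holds.

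The planned design was a limma fit if values per mouse existed and a fold rule if not. Since the table has group values, the 1.5-fold rule on FPKM + 1 was used, with no test and no replicate error. Peaks were joined to genes within 2 kb and counted as replicated within 10 kb. Symbols were looked up in the GENCODE gene models of NCBIM37, where 21853 of 23235 were found, and transcript length is that of the longest annotated transcript. The genes and the lists (other core clock genes, bHLH-PAS relatives, coactivators and chromatin partners, bHLH repressors, E-box output genes, immediate early genes and cell type markers) were chosen with earlier results of these data known. Named are the 5 genes, the 3 tested genes nearest to each, and from each list at most 2 genes with the largest rise and 2 with the largest fall past the rule in a comparison. *Gapdh* is named as a scale and single markers as levels. Alternatives covered the pseudocount, filter, fold, scale of the groups, transcript length, reach, replication distance, peak height and each WT *116HG* replicate. Simulated data of 6308 genes, made for the genotype comparison at Zt +6, tested the fold rule, which called 100% of 3-fold changes and 0% of unchanged genes, which checks the code only. Tools were pandas 2.3.3, numpy 2.4.6, pysam 0.24.0 and matplotlib 3.10.9 under Python 3.11.15. Promoters were RefSeq windows of GRCm38.p6. They were placed in mm9 by an exact match of their sequence, and no other positions were carried between builds.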

Additional observations from a re-analysis of the deposited data

Results flagged for a closer look

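Differences between groups were not tested, since each group has 1 value. *Npas2* had a log2 change from Zt +6 to Zt +16 of 0.014 in WT, which gives no direction, and of -0.99 in *Snord116del*, values of unlike sign. *Bhlhe40* had opposite signs of the genotype difference at the 2 times, 1.38 at Zt +6 and -0.052 at Zt +16. The WT value of *Npas2* and the Zt +16 value of *Bhlhe40* are both near 0, and the sign of the former changed with the scale of the groups, being negative in both genotypes at the same total.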

How the results depend on the processing

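At Zt +6 the 4 members counted became 2 with the groups at the same median and 1, *Bhlhe40*, with the length trend removed. At Zt +16 the count of 0 became 1 with the same *Gapdh*, beside 8.56% of all tested genes counted as lower and 0.165% as higher. In WT between times the count of 1 became 3 with a pseudocount of 0.1, with the same total and with the same *Gapdh*. The shares of all tested genes counted as lower were then 18.0%, 28.0% and 19.8%. At a fold of 2 the count became 0, beside 2.32% counted as lower. With the length trend removed the count of 4 became 2 in *Snord116del* between times and 2 for the difference of the genotype changes. In *Snord116del* between times, 24.95% of all tested genes were then counted as lower and 24.96% as higher. The share of all tested genes counted as higher and lower at Zt +6, 49.3% and 7.62%, was 14.8% and 24.2% with the groups at the same median, 22.2% and 20.6% with quantile normalization and 12.6% and 13.6% with the length trend removed. Over the values of single genes, 170 of 195 stayed on their side of the fold rule, of which 147 kept their sign and 23, none past the rule at first, changed it, 17 no longer passed it, 8 newly passed it and 0 that had passed reversed. Leaving out a WT *116HG* replicate gave 1 to 5 members with a peak, 5 being the count with replicate 1 alone, which has a peak at most genes. Leaving out peaks with A or T runs, or those whose middle bases are repeated, took the count of members with a replicated peak from 1 to 0, both settings chosen after seeing the data. *Arntl* was the member in each of the other settings tried. No paired analysis was possible because the table holds 1 value per group and carries no replicate numbers. Low genes such as *Bhlhe41* are limited by the pseudocount and by a depth that is not in the table.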
